A study of Mus musculus with 8 samples.

Results

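The olfactomedin family was examined in cultured mouse dermal fibroblasts, with the 6 genes Olfml2a, Olfml2b, Olfml3, Olfml1, Olfm1 and Olfm2 as its members. They were chosen by gene symbol around Olfml2a, which drew attention because its level was lower in TGFβ1FKO than in control fibroblasts, and all 6 were among the 15111 genes of the deposited table. The question was whether the relatives of Olfml2a shared its lower level. RNA came from 4 libraries per group of primary dermal fibroblasts, isolated from the skin of adult tamoxifen-fed mice and kept on fibronectin in medium with serum replacement for 72 h. Control mice had the genotype Tgfb1fl/fl, and TGFβ1FKO mice had the genotype Tgfb1fl/fl:Col1a2-CreERT, so the floxed Tgfb1 alleles and the tamoxifen were common to both groups and the Cre recombinase was not. Expression of this Cre is driven by the Col1a2 promoter, whose activity in skin is largely restricted to fibroblasts, and whatever other cells a culture holds can keep intact Tgfb1. The labels number the libraries but do not say that each stems from a separate mouse, so the p-values measure the spread between these libraries, which may in part be technical.

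Olfactomedin-domain proteins are mostly secreted glycoproteins that share a propeller-shaped domain near the C terminus, and they act in the extracellular matrix and at cell surfaces. Olfml2a and Olfml2b are known as photomedins and bind chondroitin sulphate and heparin, Olfml3 is a secreted scaffold linked to BMP signalling, and Olfm1 and Olfm2 are noelins, first studied in the nervous system. The wider family includes gliomedin, which Schwann cells secrete, and the latrophilins, which are adhesion receptors with an olfactomedin domain outside the cell.

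The promoter windows of Olfml2a and of its closest relative Olfml2b are shown first, since Olfml2a was lower in TGFβ1FKO libraries and the groups of Olfml2b overlapped, together with that of Gldn, the domain gene with the lowest log2 fold change. The windows hold 250 bases before and 50 bases after the RefSeq start on GRCm38.p6, written 5′ to 3′ on the strand of the gene, and capitals mark matches to the motifs named below. Olfml2a lies at chr2:38931730-38932029, Olfml2b at chr1:170644282-170644581 and Gldn at chr9:54286236-54286535, all on the plus strand.
Olfml2a: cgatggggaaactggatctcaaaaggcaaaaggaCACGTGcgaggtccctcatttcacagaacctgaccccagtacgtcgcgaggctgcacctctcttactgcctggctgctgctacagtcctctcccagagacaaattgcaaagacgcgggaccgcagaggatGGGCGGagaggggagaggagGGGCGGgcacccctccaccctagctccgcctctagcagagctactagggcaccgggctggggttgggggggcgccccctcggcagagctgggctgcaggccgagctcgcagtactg
Olfml2b: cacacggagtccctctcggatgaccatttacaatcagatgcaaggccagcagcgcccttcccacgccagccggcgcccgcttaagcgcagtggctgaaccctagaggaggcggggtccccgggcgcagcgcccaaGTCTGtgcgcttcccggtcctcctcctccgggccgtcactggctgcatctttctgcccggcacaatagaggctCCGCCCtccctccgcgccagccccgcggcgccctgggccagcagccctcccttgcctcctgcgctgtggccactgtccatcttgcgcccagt
Gldn: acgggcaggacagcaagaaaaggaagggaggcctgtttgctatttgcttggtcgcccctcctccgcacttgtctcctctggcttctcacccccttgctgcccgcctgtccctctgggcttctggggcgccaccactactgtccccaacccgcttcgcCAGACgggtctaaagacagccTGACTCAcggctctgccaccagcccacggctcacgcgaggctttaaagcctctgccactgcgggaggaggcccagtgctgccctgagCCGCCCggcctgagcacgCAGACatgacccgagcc

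Each motif was searched on both strands of the windows. The motifs were the SMAD element CAGAC, the AP-1 site TGANTCA, the SOX core ACAAAG, the GC box GGGCGG, the TATA box TATAAA and the E-box CACGTG. The Olfml2a window held 2 GC boxes, 86 and 66 bases before the start, and 1 E-box 216 bases before it. The Olfml2b window held 1 SMAD element and 1 GC box. The Gldn window held 2 SMAD elements, 1 AP-1 site and 1 GC box. Among all 32851 windows of this length, 49.6% held a SMAD element, 35.7% a GC box, 7.81% an AP-1 site, 7.15% an E-box, 18.7% a SOX core and 13.6% a TATA box. The window of Olfml2a had 64% G and C bases and 17 CpG dinucleotides, that of Olfml2b had 69% and 25, and the median over all windows was 52.7% and 7. These matches describe the letters in the windows and say nothing about binding.

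Between 16988998 and 23071528 reads fell on the listed genes per library. Tgfb1, the deleted gene, was at 1298 to 1483 normalised counts in the control libraries and at 228 to 326 in the TGFβ1FKO libraries (log2 fold change -2.31, SE 0.10, adjusted p = 1.53e-07, limma with Benjamini-Hochberg adjustment), so it fell in accordance with the labels. All 8 genes listed as fibroblast markers were in the table, with summed normalised counts of 1.27e+06 to 1.57e+06 in control and 1.32e+06 to 1.47e+06 in TGFβ1FKO libraries. A normalised count is the reads on a gene, scaled by the size factor of its library. Genes were called at an adjusted p-value under 0.05 with an absolute log2 fold change over 0.6, which held for 13 of the 15111 genes, or 0.086%.

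Olfml2a (ENSMUSG00000046618, GRCm38 chromosome 2, 38931978 to 38963753, plus strand) codes for a photomedin. In control libraries 1 to 4 it had 285, 391, 356 and 284 normalised counts. In TGFβ1FKO libraries 1 to 4 it had 202, 166, 145 and 206. The highest TGFβ1FKO library thus lay below the lowest control library, with TGFβ1FKO replicate 3 at the bottom. The mean was 329 ± 53.3 (SD, n = 4) over control libraries and 179.7 ± 29.2 (SD, n = 4) over TGFβ1FKO libraries, or 54.6% of the control mean. On the log2 scale the difference was -0.87 (SE 0.14). No test is given for it, because the gene was chosen on this contrast. The counts rest on 160 to 368 reads per library. A processed pseudogene, Gm13473, lies within the span of Olfml2a but reaches none of its exons.

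Olfml2b (ENSMUSG00000038463, chromosome 1, 170644532 to 170682789, plus strand) codes for the second photomedin and is the nearest relative of Olfml2a. It had 3553, 3501, 3616 and 4905 normalised counts in control libraries 1 to 4. In TGFβ1FKO libraries 1 to 4 it had 3708, 3825, 3325 and 3815. The groups overlapped, and control replicate 4 stood well above the other 3 control libraries. Its log2 fold change of -0.074 had a 95% interval from -0.28 to 0.14 (adjusted p = 0.895, limma with Benjamini-Hochberg adjustment). An exact two-sided permutation test of the group means gave p = 0.771, where 4 libraries against 4 allow no p below 0.0286. Without control replicate 4 the log2 fold change was 0.042. The interval of Olfml2b did not reach the log2 fold change of Olfml2a, but the difference between these genes was not tested, as Olfml2a was chosen for its value.

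Olfml3 (ENSMUSG00000027848, chromosome 3, 103722222 to 103738001, minus strand) codes for a secreted protein that binds BMP4. It had 7318, 8002, 8117 and 8311 normalised counts in control libraries 1 to 4 and 7680.2, 6607, 6374 and 7118 in TGFβ1FKO libraries 1 to 4. In 3 of the 4 TGFβ1FKO libraries the count lay below all controls, whereas replicate 1 lay above control replicate 1. With a log2 fold change of -0.19 and a 95% interval from -0.34 to -0.052, the gene was not called (unadjusted p = 0.0113, adjusted p = 0.543, limma with Benjamini-Hochberg adjustment). The exact permutation test gave p = 0.0571. The TGFβ1FKO mean was 87.5% of the control mean.

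Olfm1 (ENSMUSG00000026833, chromosome 2, 28192992 to 28230736, plus strand) codes for a noelin that binds the Nogo receptor. It had 1210.4, 1259, 1372 and 1556 normalised counts in control libraries 1 to 4 and 1189, 1813, 1366 and 1539 in TGFβ1FKO libraries 1 to 4. The lowest and the highest library both belonged to the TGFβ1FKO group. Its log2 fold change of 0.12 had a 95% interval from -0.13 to 0.37 (adjusted p = 0.839, limma with Benjamini-Hochberg adjustment), and the exact permutation test gave p = 0.543. Olfm1 has 5 annotated transcripts, which these counts per gene do not separate.

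Olfml1 (ENSMUSG00000051041, chromosome 7, 107567446 to 107591094, plus strand) was a low member. It had 35.3, 39.3, 29.9 and 50.4 normalised counts in control libraries 1 to 4 and 61.8, 31.1, 26.6 and 34.3 in TGFβ1FKO libraries 1 to 4. The highest TGFβ1FKO library, replicate 1, lay above all controls and replicate 3 lay below them. Its log2 fold change of -0.061 had a 95% interval from -0.65 to 0.52 (adjusted p = 0.974, limma with Benjamini-Hochberg adjustment), and the exact permutation test gave p = 0.971. At 27 to 61 reads per library, this interval did not reach the value of Olfml2a, a gene chosen for its fall. It did include falls past the threshold of 0.6, and the difference between these genes was not tested. Without TGFβ1FKO replicate 1 the log2 fold change was -0.31.

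Olfm2 (ENSMUSG00000032172, chromosome 9, 20667690 to 20746349, minus strand) codes for a noelin that is known from smooth muscle differentiation. It had 19.8, 23.4, 20.0 and 21.7 normalised counts in control libraries 1 to 4 and 11.1, 20.7, 19.1 and 16.6 in TGFβ1FKO libraries 1 to 4. The groups overlapped through TGFβ1FKO replicate 2, and replicate 1 was the lowest. The difference was -0.34 on the log2 scale (SE 0.26) and -0.17 without TGFβ1FKO replicate 1. The study had listed Olfm2 among genes with low fold changes in the same libraries, so its direction is not independent evidence and no test is given. It rests on 11 to 23 reads per library.

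**Figure D1:**
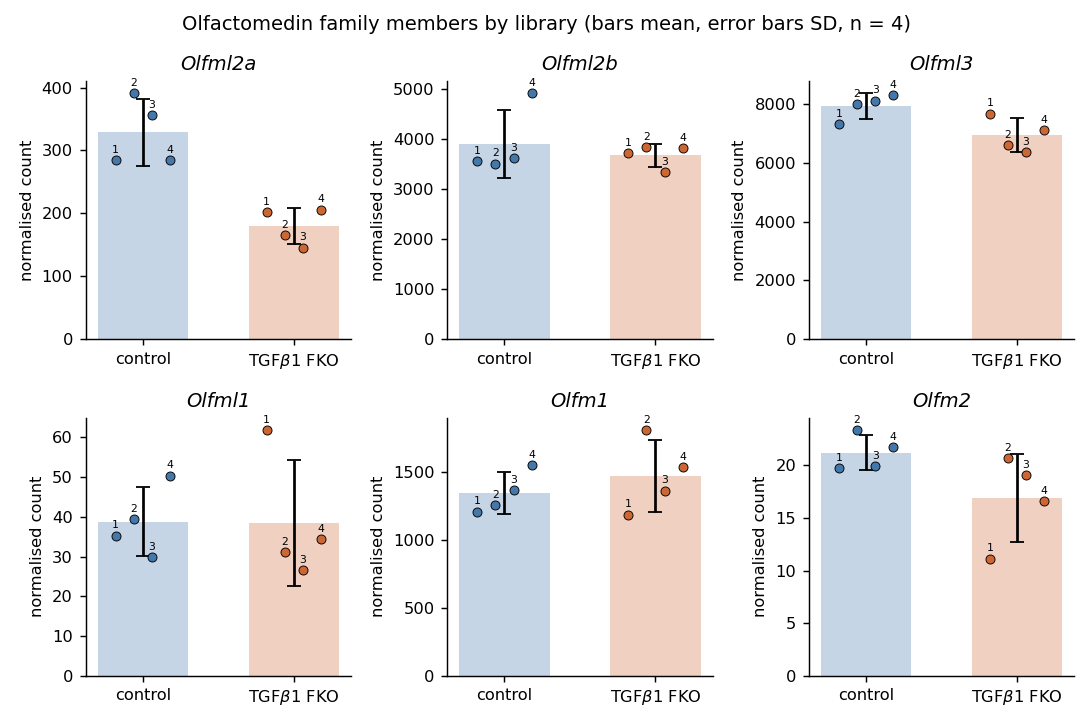
Normalised counts of the 6 olfactomedin family members in control and TGFβ1FKO fibroblasts. Points are libraries with their replicate numbers, bars are means and error bars are SD (n = 4), and Olfml2a is the only member whose groups do not overlap.

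Of the 4 relatives chosen by name, Olfml2b, Olfml3, Olfml1 and Olfm1, none was called in limma's test. Like the other members, they were chosen with earlier results of these data known. Olfml3 was the 1 gene below an unadjusted p-value of 0.05, on the lower side, where 3.87% of all genes passed in that direction and 3.59% in the other. The median log2 fold change of the 4 relatives was -0.067, against 0.00314 over all 15111 genes. Among the 6 members, 5 had a log2 fold change under 0 and 1 over 0, a count that is not independent evidence of a shared fall. Olfml2a and Olfm2 had been picked or listed by this contrast, and Olfml2b and Olfml1 changed direction with a library left out. The groups did not overlap in 1 of the 6, Olfml2a, for which the rule used this contrast, and over all genes 2.1% lay lower in every TGFβ1FKO library.

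Levels were compared between genes as RPKM, the reads on a gene divided by the length of its exons in GENCODE M21 and by the reads of the library. On this scale Olfml3 had a level of 67.5 ± 2.99 (SD, n = 4) in control fibroblasts and Olfml2b of 65.9 ± 10.5 (SD, n = 4). Their libraries overlapped, so that these highest members could not be ordered. Olfm1 came next with a level of 19.9 ± 2.02 (SD, n = 4), below every Olfml2b library. Olfml2a was at 3.09 ± 0.501 (SD, n = 4) in the control libraries and at 1.67 ± 0.27 (SD, n = 4) in the TGFβ1FKO libraries. Its control libraries lay above all control libraries of Olfml1, whose level was 1.2 ± 0.249 (SD, n = 4). In TGFβ1FKO fibroblasts the levels of Olfml2a, 1.36 to 1.91, and of Olfml1, 0.823 to 1.90, overlapped. Olfm2 was the lowest member with a level of 0.417 ± 0.028 (SD, n = 4) in control.

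Olfml3 and Olfml2b together made up most of the summed level of the 6 members, with 42.9% and 41.5% in control fibroblasts. Olfml2a made up 1.98% ± 0.41 (SD, n = 4) of it in control libraries and 1.15% ± 0.141 (SD, n = 4) in TGFβ1FKO libraries. The summed level was 158 ± 13.9 (SD, n = 4) in control libraries and 144.3 ± 7.78 (SD, n = 4) in TGFβ1FKO libraries, with overlap of the groups. Within the pair of photomedins, the share of Olfml2a was 4.26%, 5.83%, 5.18% and 3.12% in control libraries 1 to 4. It was 2.93%, 2.35%, 2.37% and 2.91% in TGFβ1FKO libraries 1 to 4, all below the controls. Olfml2a was chosen for its lower level, so its lower shares are no separate evidence. The lowest control, replicate 4, was the library with the high Olfml2b count.

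**Figure D2:**
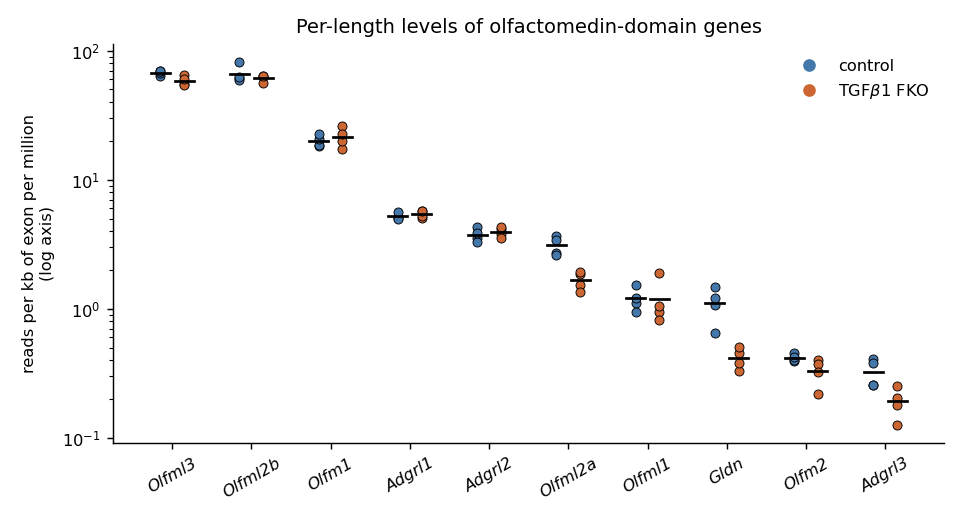
RPKM on a log axis for the 6 members and the other 4 olfactomedin-domain genes. Points are libraries and lines are means, and the control means run from Olfml3 at 67.5 to Adgrl3 at 0.326 with the length of all exons. With the longest transcript as length, Adgrl3 is at 0.851 and Olfm2 is lowest at 0.554.

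The other genes with an olfactomedin domain were taken from a list of 7, of which 4 were in the table, and Olfm3, Olfm4 and Myoc were not analysed here. None of the 4 was called in limma's test, while 2 of them, Gldn and Adgrl3, were lower with an unadjusted p-value below 0.05. In both of these the groups did not overlap. Over all genes 3.87% passed this p-value on the lower side and 2.1% lay lower without overlap.

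Gldn (ENSMUSG00000046167, chromosome 9, 54286486 to 54341786, plus strand) codes for gliomedin, which Schwann cells use to cluster sodium channels at nodes of Ranvier. It had 93.8, 109, 129 and 58.3 normalised counts in control libraries 1 to 4 and 29.4, 41.4, 44.8 and 34.3 in TGFβ1FKO libraries 1 to 4. Every TGFβ1FKO library lay below control replicate 4, the lowest of its group. At a log2 fold change of -1.32 (SE 0.24) it missed the adjusted threshold (adjusted p = 0.0716, limma with Benjamini-Hochberg adjustment). Without control replicate 4 it was called, at -1.54 (adjusted p = 0.00682, limma with Benjamini-Hochberg adjustment). With another library left out, the adjusted p of limma with Benjamini-Hochberg adjustment was up to 0.293. Gldn overlaps the antisense gene Gldnos, which was not among the genes analysed. The libraries were non-directional, so reads cannot be told apart where the pair overlaps.

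Adgrl3 (ENSMUSG00000037605, chromosome 5, 81020138 to 81825133, plus strand) codes for a latrophilin that binds teneurins and FLRT proteins. It had 136, 88.2, 86.5 and 130.4 normalised counts in control libraries 1 to 4 and 69.9, 43.5, 86.4 and 62.0 in TGFβ1FKO libraries 1 to 4. The groups touched, with control replicate 3 at 86.5 and TGFβ1FKO replicate 3 at 86.4. Its log2 fold change of -0.75 (SE 0.22) was not called (adjusted p = 0.472, limma with Benjamini-Hochberg adjustment). Its antisense neighbour Gm16054, which was not among the genes analysed, reaches an exon of Adgrl3. Genes on the opposite strand reach exons of Adgrl1 and Adgrl2 as well. The other latrophilins, Adgrl1 and Adgrl2, had log2 fold changes of 0.086 and 0.092, with 95% intervals from -0.064 to 0.24 and from -0.10 to 0.29, and adjusted p-values of 0.81 and 0.846 in limma's test with Benjamini-Hochberg adjustment. Their control means were 850.3 ± 60.7 (SD, n = 4) and 1017 ± 128.2 (SD, n = 4) normalised counts.

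**Figure D3:**
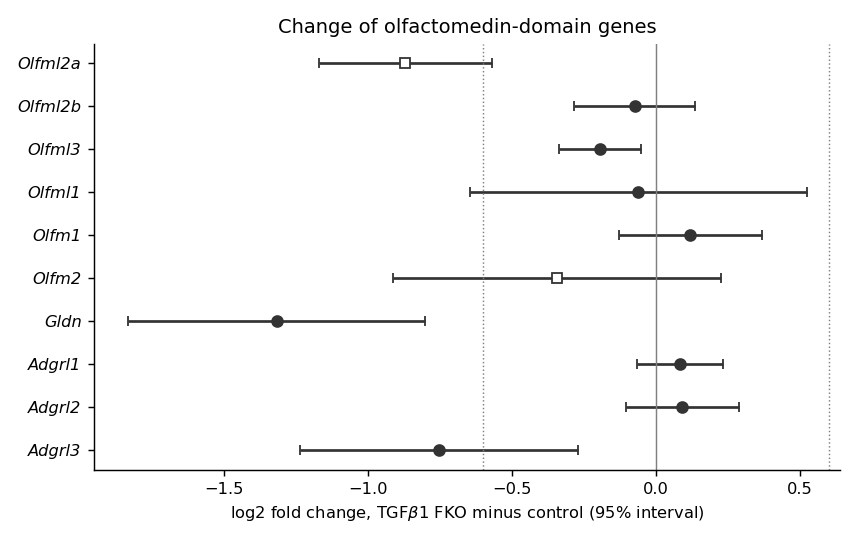
Log2 fold changes of the 10 olfactomedin-domain genes with 95% intervals from limma. Open squares mark Olfml2a and Olfm2, for which no test is given, dotted lines mark 0.6 in either direction, and among the genes tested the intervals of Olfml3, Gldn and Adgrl3 lie below 0 although none of these genes was called.

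Genes of Schwann cells were lower in the same TGFβ1FKO libraries. Of 12 Schwann cell markers 10 were in the table, all 10 with a log2 fold change under 0, a median of -2.04 and an unadjusted p-value under 0.05. The list was chosen with earlier results of these data known, so counts on it are not independent evidence. Sox10 and Foxd3 were called, and 5 of the 10 had groups that did not overlap. Over all genes 0.086% were called, 3.87% were lower with such a p-value and 2.1% lay lower without overlap. Their summed normalised counts were 1688 to 2414 in control and 872 to 1808 in TGFβ1FKO libraries, most of them from Ngfr. Gfra3 was at 0 in TGFβ1FKO replicates 1 and 3, and no other of the 10 was at 0 in any library. Sox10 had 132, 148, 207 and 72.1 normalised counts in control libraries 1 to 4 and 19.3, 7.25, 18.3 and 21.1 in TGFβ1FKO libraries 1 to 4. Among the control libraries, Gldn and Sox10 had the same order, from replicate 4 through 1 and 2 to 3. Olfml2a had replicates 4 and 1 nearly level, at 284.4 and 284.8 normalised counts, followed by 3 and then 2. Among the TGFβ1FKO libraries Olfml2a ran from replicate 3 through 2 and 1 to 4, Sox10 from 2 through 3 and 1 to 4, and Gldn from 1 through 4 and 2 to 3. The part of these cells in the lower levels of Olfml2a, Gldn and Adgrl3 was not tested, and in bulk RNA fewer cells of a type and less RNA per cell cannot be told apart.

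Of the other cell types, the lists of melanocyte, mural, macrophage, keratinocyte, adipocyte and skeletal muscle markers had 3, 6, 4, 4, 2 and 1 genes in the table and none called in limma's test. Among them 1 mural gene was lower, and 1 mural and 2 keratinocyte genes were higher, with an unadjusted p-value below 0.05. Such a p-value was reached by 3.87% of all genes on the lower side and 3.59% on the higher, and 0.086% were called. All 9 endothelial markers also had a log2 fold change under 0, with a median of -0.47 and none called in limma's test. An unadjusted p-value below 0.05 was found for 2 of them, and the summed counts were 588 to 892 in control and 568 to 620 in TGFβ1FKO libraries. Their part in the level of Olfml2a was not tested.

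**Figure D4:**
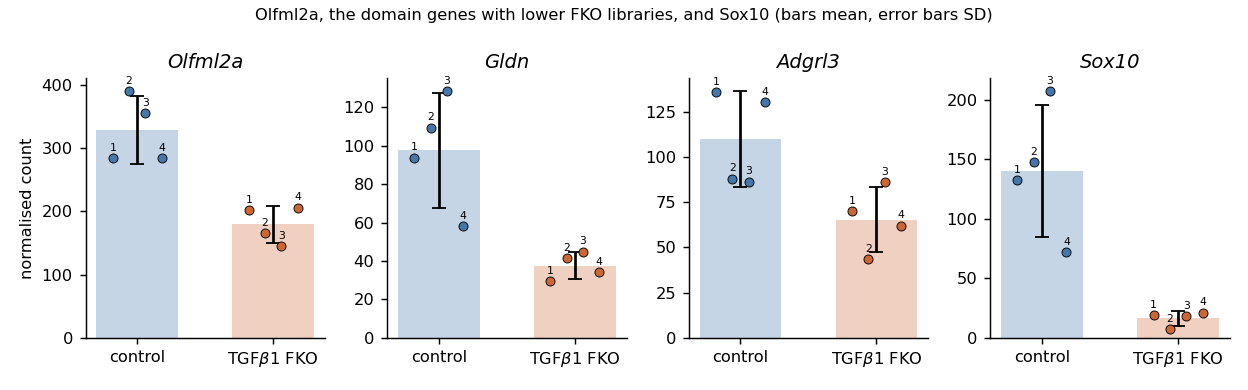
Normalised counts of Olfml2a, Gldn, Adgrl3 and the Schwann cell gene Sox10 by library. Points carry replicate numbers, bars are means and error bars are SD (n = 4), and in all 4 genes every TGFβ1FKO library lies below every control library, for Adgrl3 with 86.4 against 86.5 at the closest.

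A list of 25 genes held known binding partners of olfactomedin-domain proteins and genes of chondroitin sulphate, and 23 of them were in the table. None was called in limma's test, where 0.086% of all genes were called. An unadjusted p-value under 0.05 was found for 5 lower and 2 higher genes, where 3.87% and 3.59% of all genes passed on these sides. The median log2 fold change was -0.025, with 13 genes under 0 and 10 over 0. The groups did not overlap in 2 of the 23, Chrd and Bmp1, both lower, where 2.1% of all genes lay lower without overlap. Chrd, a BMP antagonist cleaved with the help of an Olfml3 relative in frogs, was at 158 ± 19.9 (SD, n = 4) in control libraries and at 107.5 ± 21.1 (SD, n = 4) in TGFβ1FKO libraries in normalised counts. The difference on the log2 scale was -0.56 (adjusted p = 0.444, limma with Benjamini-Hochberg adjustment). Flrt3, a ligand of latrophilins, had a log2 fold change of 0.40. Ngfr, a coreceptor of the Nogo receptor and also on the Schwann cell list, had one of -0.65. Cspg4, a chondroitin sulphate proteoglycan that is also on the list of mural cells, had one of -0.50 (adjusted p between 0.536 and 0.599 for these 3 genes, limma with Benjamini-Hochberg adjustment). The partners with the highest counts were Sparc, Bmp1 and Vcan. Sparc, which binds collagen, had a log2 fold change of -0.0061. Bmp1, the protease that cleaves chordin and procollagens, had one of -0.10. Vcan, a large chondroitin sulphate proteoglycan, had one of 0.17.

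The genes whose levels across the 8 libraries were most like Olfml2a were Fam213a (r = 0.975), Tspan6 (r = 0.961), Medag (r = 0.96), Hint3 (r = 0.96) and Ap3s1 (r = 0.957). These are Pearson correlations of log2 values among the 11560 other genes whose mean reached 50 normalised counts. They are given as a description, because they span both groups and so include the group difference for which Olfml2a was chosen. The same holds for the ranks below. Fam213a was at 328 ± 22.6 (SD, n = 4) in control libraries and at 282 ± 15.2 (SD, n = 4) in TGFβ1FKO libraries, and the TGFβ1FKO means of these 5 genes were 84.3% to 95.9% of the control means. Tgfb1 came 7th with r = 0.932 and Sox10 10th with r = 0.925. Among the relatives, Olfml3 came 62nd with r = 0.857, whereas Olfml2b had r = 0.139 and Olfm1 r = -0.376. Gldn came 96th with r = 0.83.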

How the data were processed

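RNA-seq values of 8 libraries were analysed, 4 control and 4 TGFβ1FKO, grouped by their labels. Per the labels, the authors used CASAVA 1.8, HISAT2 2.0.5 with GRCm38, featureCounts 1.5.0-p3, R 4.3.2 and DESeq2 1.42.0. The deposited values are a signal, reads per gene scaled by size factors with 0.5 added, for genes that passed the filter of the authors on summed counts. The authors also deposited log2 fold changes, standard errors, p-values and a Wald score, which were not used.

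The 0.5 was subtracted, and the reads behind each value were worked out from the smallest step in its library (100% of values were whole multiples of it within 0.001). Values plus a pseudocount of 1 were compared as log2 over all genes in limma 3.58.1 (R 4.3.3, trend over mean level), which was tested on simulated data. This pseudocount understates changes of genes with few reads. Means were compared for the 4 relatives with two-sided exact permutation tests (scipy 1.17.1). Standard errors and intervals of single genes come from limma.

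Members and lists were chosen with earlier results of these data known. The genes named are the 6 members, all listed domain genes, the 4 partners with the lowest p and the 3 with the highest count, the 5 genes most like Olfml2a, and Tgfb1. Alternatives covered pseudocount, scaling, a filter, thresholds, a replicate block, transcript length and each library left out. All 8 libraries carry the added 0.5. A check of the values with it left in did not find whole multiples of a step in 2 libraries. The planned tests on counts with edgeR, DESeq2 and TMM factors were then not run. With the 0.5 subtracted, 100% of values were whole multiples in every library. Promoter windows are from RefSeq (GRCm38.p6, all 10 genes matched) and coordinates from GENCODE M21.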

Additional observations from a re-analysis of the deposited data

Results flagged for a closer look

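Control replicate 4 had 4905 normalised counts of Olfml2b, while the other 3 control libraries had 3501 to 3616, a gap of 0.918 of the range of the group. Among 22 groups of 4 libraries examined for members, domain genes and Tgfb1, this was the 1 group with a library so far from the others, where 1.1 would be expected by chance.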

How the results depend on the processing

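The scalings to the total and to the upper quartile were chosen after seeing the data. None of the relatives and none of the partner genes was called under any alternative, with adjusted p and fold thresholds in limma's test. The log2 fold change of Olfml2a stayed between -0.89 and -0.86 with all libraries and between -0.94 and -0.77 with a library left out, and that of Tgfb1 between -2.40 and -2.23. The number of domain genes called, 0, became 1 (Gldn) at an adjusted p under 0.1 and with the replicate block, and was 0 to 1 with a library left out. The number of all genes called, 13 with 12 lower, was 25 with 22 lower at an adjusted p under 0.1. It was 3, all lower, with at least 10 reads in every library, a filter that left 12946 genes. That filter also removes genes for being low in TGFβ1FKO libraries. Among them were the called genes Sox10 and Foxd3, at 7.25 and 3.04 normalised counts in their lowest TGFβ1FKO library. With a library left out, the number called ranged from 5 to 32, with 4 to 29 lower. Olfml2b ranged from -0.12 to 0.042 and Olfml1 from -0.31 to 0.086 with a library left out, so neither had a fixed direction.

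With the replicate number as a block, 31 genes were called, 28 of them lower, and Gldn was called at -1.32 (adjusted p = 0.0295, limma with Benjamini-Hochberg adjustment). The labels do not say whether the numbers pair the libraries. The deviations of same-numbered libraries correlated at -0.134 to 0.159. No control library correlated best with its own number, while TGFβ1FKO replicates 1 and 4 did. The highest value, 0.387, was between control replicate 4 and TGFβ1FKO replicate 2. With 4 libraries per group these values do not settle it. With the longest transcript as length, the control levels of Adgrl3 and Adgrl2 moved most, from 0.326 to 0.851 and from 3.75 to 8.81, which put Adgrl2 above Adgrl1 (5.45) and Adgrl3 above Olfm2. Those of Olfml3, Olfm1 and Olfm2 were 76.1, 25.6 and 0.554, and Olfml2a stayed in place 4 of the 6 members. The cause of the moves between settings was not tested. Few reads limit Olfm2 and Olfml1, and the tests on counts were not run.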

Other observations

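TGFβ1FKO replicate 3 was the lowest library of its group in 4 of the 6 members, Olfml2a, Olfml2b, Olfml3 and Olfml1. Control replicate 4 was the highest of its group in 4 of the 6, Olfml2b, Olfml3, Olfml1 and Olfm1. In Olfml2a it was nearly level with control replicate 1 at the bottom, with 284.4 against 284.8 normalised counts. How often these libraries were the extremes over all genes was not worked out, so these counts are not a trait of the family.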
